A study of Mus musculus with 138 samples.

Results

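Pi16, Dpp4 and Cd34 encode surface proteins that mark the adventitial and fascial fibroblasts often described as fibroblast progenitors, and 6 further genes, Ly6a, Dpt, Clec3b, Mfap5, Tnxb and Cpz, are expressed by the same or neighbouring connective tissue cells. These 9 genes of the 55487 in the deposited count files were followed across suture mesenchyme (SM) and osteogenic fronts (OFs) of the mouse skull. They were chosen by name, with earlier results of these data known, for a description of SM against OF by suture and age, so that the SM and OF values are a description without a test. All 9 genes passed the filter on low counts, which kept 19768 genes.

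The samples came from wild type C57BL/6J embryos at E16.5 and E18.5. Regions were cut from sections by laser-capture microdissection, their RNA was amplified, and the reads of each gene were counted. The 20 captured groups, with 5 embryos each, were SM and the frontal OF (FR) of the frontal suture, SM, FR and the parietal OF (PA) of the coronal suture, SM, PA and the interparietal OF (IP) of the lambdoid suture, and SM and PA of the sagittal suture, each at both ages. The 18 second libraries of coronal regions, 16 libraries of complete E18.5 sutures and 4 single-cell libraries of pooled coronal sutures were kept apart from these 100 libraries. All groups were wild type, no group received a treatment, and the labels do not give the sex of the embryos.

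Fibroblasts that carry Pi16 and Dpp4 lie in the adventitia of vessels, in fascia and in the deep connective tissue of many organs, and are known for giving rise to other fibroblasts. Cd34 is carried by these cells but also by vascular endothelium, and Ly6a (Sca-1) is likewise shared by fibroblasts and endothelium. Over the skull, the loose connective tissue outside the bones is fascia and hypodermis, the bones grow at their OFs by intramembranous ossification, and the SM keeps the fronts apart.

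By role, the surface proteins are Pi16, a peptidase inhibitor with a lipid anchor, Dpp4, a membrane dipeptidase, Cd34, a sialomucin, and Ly6a, a lipid-anchored protein. The matrix proteins are Dpt (dermatopontin, which binds collagen and decorin), Mfap5 (a microfibril glycoprotein) and Tnxb (tenascin X). Clec3b (tetranectin) is a secreted lectin that binds plasminogen, and Cpz (carboxypeptidase Z) is a secreted enzyme with a domain like that of the Wnt receptors. In mm10, the build of the counts, Pi16 (ENSMUSG00000024011.17) lies on chromosome 17 at 29317680 to 29330593, Dpp4 (ENSMUSG00000035000.8) on chromosome 2 at 62330073 to 62412231, and Cd34 (ENSMUSG00000016494.9) on chromosome 1 at 194938819 to 194961279.

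RefSeq promoters (GRCm38.p6, which is mm10) were at hand for 6 of the 9 genes, Pi16, Dpp4, Cd34, Dpt, Tnxb and Cpz. The promoters of the 3 surface genes are shown because Pi16 and Dpp4 varied together over the libraries outside the coronal suture (Pearson's r = 0.817, 70 libraries centred on suture and age), and Cd34 did so less closely (0.483 to Pi16 and 0.602 to Dpp4). Over all 100 libraries, centred in the same way, r was 0.459 for Pi16 and Dpp4. For Cd34 it was 0.062 to Pi16 and 0.459 to Dpp4. Each runs 5′ to 3′ on the gene's strand, from 250 bases before the RefSeq start to 50 bases after it, with the matches to the motifs searched in capitals. Pi16 is at chr17:29318632-29318931 on the plus strand, Dpp4 at chr2:62412182-62412481 on the minus strand and Cd34 at chr1:194938571-194938870 on the plus strand.
Pi16: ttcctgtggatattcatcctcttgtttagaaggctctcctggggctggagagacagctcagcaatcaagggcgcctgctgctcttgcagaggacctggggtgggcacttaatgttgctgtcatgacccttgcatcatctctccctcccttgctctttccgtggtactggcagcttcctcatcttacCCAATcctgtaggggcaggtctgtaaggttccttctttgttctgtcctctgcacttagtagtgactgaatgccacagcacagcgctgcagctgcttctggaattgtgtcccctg
Dpp4: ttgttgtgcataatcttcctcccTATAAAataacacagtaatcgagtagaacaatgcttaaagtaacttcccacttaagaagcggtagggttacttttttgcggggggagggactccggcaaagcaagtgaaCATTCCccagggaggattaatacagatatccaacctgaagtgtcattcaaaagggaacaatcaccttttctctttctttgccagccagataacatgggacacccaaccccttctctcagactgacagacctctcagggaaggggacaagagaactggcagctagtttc
Cd34: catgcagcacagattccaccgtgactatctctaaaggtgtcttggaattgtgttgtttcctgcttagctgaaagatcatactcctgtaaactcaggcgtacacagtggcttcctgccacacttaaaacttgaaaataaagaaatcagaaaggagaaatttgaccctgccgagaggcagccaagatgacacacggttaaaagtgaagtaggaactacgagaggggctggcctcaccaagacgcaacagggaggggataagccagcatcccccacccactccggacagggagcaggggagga

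The motifs searched on both strands were TGANTCA (the AP-1 site), GGAATG (the TEAD site), TATAAA (the TATA box), CCAAT (the site of NF-Y) and TGACG (the core of the CREB site). The Pi16 window held 1 CCAAT match, the Dpp4 window held 1 TATAAA match and 1 GGAATG match on the opposite strand, and the Cd34 window held no match. Of 32851 promoters of the same length, 37.4% held CCAAT, 13.6% held TATAAA, 14.7% held GGAATG, 7.81% held TGANTCA and 20.8% held TGACG. Dpt held 1 TATAAA match, Tnxb 1 TGANTCA match and Cpz 1 TGACG match. No motif was shared by all 6 windows, and no matches overlapped.

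Totals of 7305627 to 34518477 counted read pairs per library stood behind these values. The 30 coronal libraries were the deepest (20133332 to 34518477), but a median of 21678 genes was detected in them against 24863 in the 70 libraries of the other sutures. Depth and genes detected thus moved with the suture, and their part in a difference of level between sutures was not tested, whereas SM and OF were compared within a suture. Levels are given as CPM, the counts relative to the library total after scaling by the TMM method. As a check of the labels, 8 or 9 of 9 osteoblast markers were lower in SM than in OF in each suture and age. Of the marker lists, 0 of 5 neutrophil, 2 of 5 keratinocyte and 1 of 4 adipocyte genes passed the filter. Since whole regions were measured, more cells of a type and more RNA per cell cannot be told apart.

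Per kilobase of exon, the median CPM over the 100 libraries was highest for Cpz (14.1 CPM per kb), then Dpt (8.82), Cd34 (6.68), Ly6a (4.93) and Mfap5 (2.08). Clec3b (1.05), Dpp4 (0.722), Pi16 (0.654) and Tnxb (0.517) were the lower 4. Clec3b had no read in 25 of 100 libraries, Tnxb in 10, Pi16 in 9, Mfap5 in 8, Ly6a in 6 and Dpp4 in 1, while Cd34, Dpt and Cpz were read in every library.

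**Figure D1:**
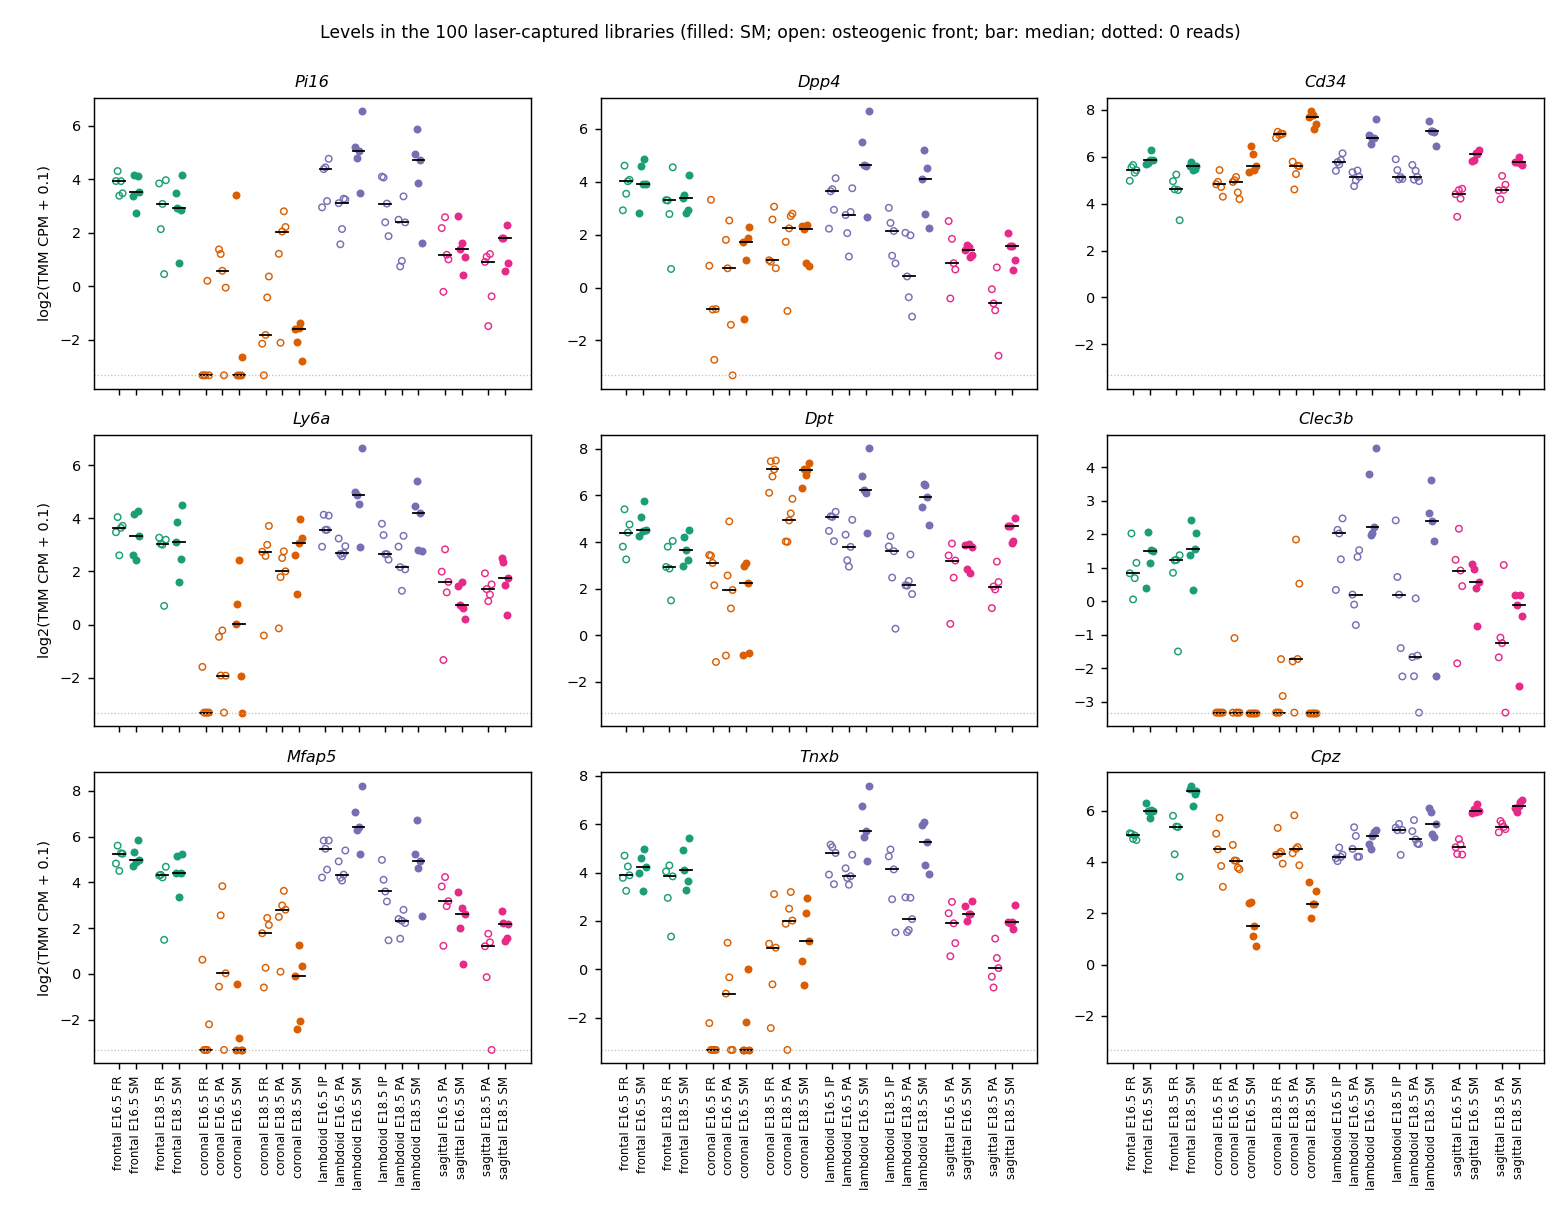
Levels of the 9 genes in the 100 captured libraries, by suture, age and region (5 libraries a group). Each panel is 1 gene and each point 1 library, on a log2 scale of CPM with 0.1 added, filled for SM and open for OF, with a bar at the median. The lambdoid SM points of Pi16, Dpp4, Ly6a, Mfap5 and Tnxb reach highest, and many coronal points sit on the dotted line of 0 reads.

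The highest groups were much alike for Pi16, Dpp4, Ly6a, Tnxb and Mfap5, and the order of the lower groups less so. The coronal SM at E18.5 ranked 7 of the 20 groups for Ly6a and 17 for Pi16. Pi16 was highest in the lambdoid SM at E16.5 (median 33.2 CPM, range 10.98 to 93.35) and at E18.5 (26.3, 2.98 to 58.8), then in the lambdoid IP at E16.5 (20.7, 7.63 to 27.0) and in the frontal FR (15.1, 10.3 to 19.6) and SM at E16.5 (11.4, 6.55 to 17.7). The ranges of all of these neighbours overlapped. The 3 remaining lambdoid OF groups and the frontal groups at E18.5 had medians of 5.13 to 8.50 CPM, and the sagittal groups 1.78 to 3.37. At the low end stood the coronal SM at E16.5 and FR at E16.5, both with a median of 0, and the coronal FR (0.184) and SM (0.234) at E18.5. The lambdoid SM at E16.5 was the highest of the 20 groups also for Dpp4, Ly6a, Mfap5 and Tnxb, and the lambdoid SM at E18.5 for Clec3b. Cd34, Dpt and Cpz had another order. Cd34 was highest in the coronal SM at E18.5 (median 209.6 CPM, 147.2 to 247.8), and Dpt in the coronal FR (138.6, 69.1 to 180.7) and SM (135.7, 79.5 to 168.0) at E18.5, whose ranges overlapped. Cpz was highest in the frontal SM at E18.5 (107.3, 72.3 to 125.7) and lowest in the coronal SM at E16.5 (2.77, 1.57 to 5.30) and E18.5 (5.10, 3.39 to 9.33).

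In the lambdoid suture, 8 of the 9 genes were higher in SM than in the mean of both fronts at each age, at 1.52 to 2.31 on the log2 scale at E16.5 and 1.49 to 3.03 at E18.5. Cpz was the exception, with differences of 0.46 ± 0.26 (SE) and 0.47 ± 0.26. Since this contrast served to choose the genes, its values are given without a test, and they were also computed without each replicate number in turn. All fold changes of SM against OF are differences of fitted log2 CPM, with the standard error of the fit.

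Pi16 in the lambdoid SM at E16.5 was at 36.5, 27.4, 33.2, 11.0 and 93.4 CPM in replicates 1 to 5, against 2.87 to 27.0 CPM (median 9.17) in the 10 OF libraries. At E18.5 it was at 30.6, 58.8, 14.5, 26.3 and 2.98 CPM in SM, against 1.57 to 17.0 (median 5.32) in the OFs. The groups overlapped at both ages, and SM exceeded the mean of the fronts of the same embryo in 5 of 5 embryos at E16.5 and 4 of 5 at E18.5. The differences were 1.88 ± 0.66 and 1.93 ± 0.66 on the log2 scale. Against single fronts they were larger against PA (2.54 and 2.46) than against IP (1.23 and 1.39), at both ages. Without replicate 5 of every group the E16.5 difference from both fronts was 1.54, and without replicate 2 the E18.5 difference was 1.47.

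Dpp4 followed the same libraries. In the lambdoid SM it was at 45.4, 24.5, 24.2, 6.33 and 102.4 CPM at E16.5, and at 16.9, 36.4, 6.75, 22.7 and 4.70 CPM at E18.5, against medians of 7.36 and 3.02 CPM in the OFs. Replicate 5 of E16.5 and replicate 2 of E18.5 were the highest of their groups for both Pi16 and Dpp4, and replicate 4 of E16.5 and replicate 5 of E18.5 the lowest. The differences from the OFs were 2.24 ± 0.57 and 2.56 ± 0.59 on the log2 scale. Ly6a ran from 7.45 to 99.9 CPM in the lambdoid SM at E16.5 (median 29.8) and from 6.76 to 42.2 at E18.5 (median 18.4), with differences of 1.99 ± 0.51 and 1.49 ± 0.52, or 1.38 at E16.5 without replicate 5 and 1.03 at E18.5 without replicate 2.

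Cd34 varied much less among these libraries. It was at 120.6, 92.1, 111.1, 112.3 and 196.7 CPM in the lambdoid SM at E16.5 and at 183.8, 137.1, 139.0, 134.0 and 89.2 CPM at E18.5. Each of these values lay above every OF library of its age, the highest of which were 70.8 and 59.3 CPM, a separation found in 7.16% and 6.08% of all genes. The differences were 1.52 ± 0.18 and 1.79 ± 0.18 on the log2 scale.

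Among the matrix genes, Dpt in the lambdoid SM was at 114.9, 76.2, 67.8, 20.8 and 260.0 CPM at E16.5 and at 45.7, 88.9, 86.0, 60.9 and 26.8 CPM at E18.5. The E18.5 values lay above all 10 OF libraries (1.11 to 18.9 CPM), as did those of Cd34. Its differences of 2.31 ± 0.48 and 3.03 ± 0.49 were the largest of the 9 genes in this suture. Mfap5 was at 134.4, 78.9, 86.7, 37.3 and 301.4 CPM at E16.5 and at 38.1, 106.7, 24.7, 30.5 and 5.73 CPM at E18.5, with differences of 2.00 ± 0.55 and 2.29 ± 0.57. Tnxb showed differences of 2.05 ± 0.53 and 2.15 ± 0.54. Clec3b, the secreted lectin, was low in level, at 3.87 to 23.7 CPM in SM at E16.5 and 0.115 to 12.4 CPM at E18.5, with differences of 2.12 ± 0.72 and 2.91 ± 0.75. The former was 1.85 without replicate 5.

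Markers of other cell types moved with these genes in the lambdoid SM. The marker lists were chosen with earlier results of these data known, and the contrast is the one that chose the genes. Their counts of SM against OF, here and in the other sutures, are therefore a description. The shares of all genes called are given with the longer list of fibroblast genes below. The markers of fascial fibroblasts, a list of 12 genes without the 9 members, had 8 higher and 1 lower at E16.5 with an adjusted p under 0.05 (quasi-likelihood test of edgeR) and 6 higher and 2 lower at E18.5, with medians of 1.40 and 0.89 on the log2 scale against 0.01 and 0.02 over all genes. Their summed level ran from 457 to 1358 CPM in SM at E16.5 against 236 to 359 in the OFs. Mast cell markers summed to 202 to 360 CPM in SM at E16.5 against 26.4 to 161 in the OFs, and 3 of 5 were called higher at E16.5 and 5 of 5 at E18.5. Skeletal muscle markers, of which 5 of the 5 tested were called higher in SM at E16.5 and 0 of 5 at E18.5, summed to 113.3, 56.0, 128.9, 33.0 and 828.2 CPM in the 5 SM libraries of E16.5. The library with 828.2 CPM was replicate 5, which also held the highest level of all 9 genes, and the library with 33.0 CPM was replicate 4, the lowest for Pi16, Dpp4, Ly6a, Dpt, Mfap5 and Tnxb. Of 7 ectocranial mesenchyme markers 5 were called higher and 0 lower at both ages, summing to 1627 to 1863 CPM in SM against 408 to 1115 in the OFs at E16.5, and to 1478 to 2438 against 743 to 1298 at E18.5. Chondrocyte markers, of which 2 of 5 were called higher at each age, summed to 228 to 435 CPM in SM against 62.1 to 202 at E16.5 and to 286 to 384 against 71.6 to 121 at E18.5, and all 4 tendon markers were called higher at both ages. Of 8 endothelial markers 6 were lower and 1 higher in SM at E16.5, and none was called in either direction at E18.5 (median 0.05 on the log2 scale). The part of these cells in the differences was not tested.

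**Figure D2:**
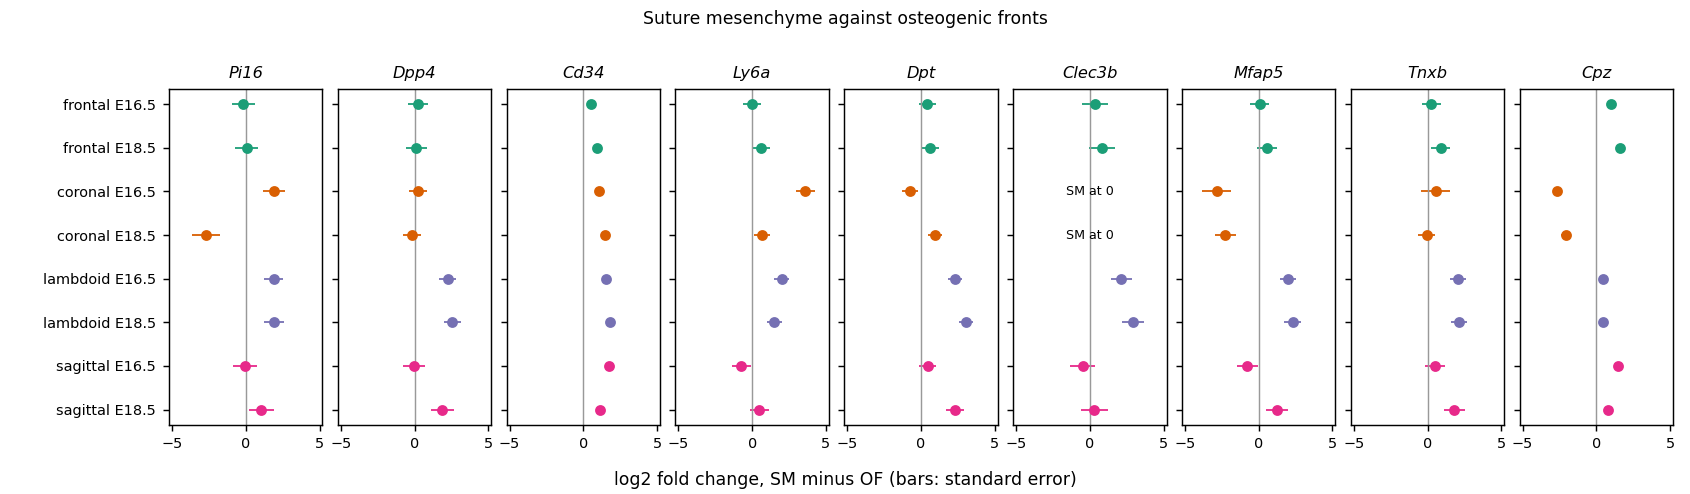
Differences of SM from OF for the 9 genes in each suture and age, as fitted log2 fold changes with their standard errors. Bars are standard errors, points are coloured by suture, and Clec3b in the coronal suture has no point because SM was at 0. In the lambdoid suture all genes but Cpz lie between 1.49 and 3.03, and Cpz lies above 0 in the frontal and sagittal and below 0 in the coronal suture.

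In the frontal suture 7 of the 9 genes overlapped between SM and FR at both ages, and Cpz and Cd34 did not. Pi16 was at 6.55 to 17.7 CPM in SM and 10.3 to 19.6 in FR at E16.5, and its differences were -0.17 ± 0.79 and 0.05 ± 0.80 on the log2 scale at the 2 ages. Dpp4, Ly6a, Dpt, Clec3b, Mfap5 and Tnxb likewise overlapped between SM and FR at both ages, with differences of -0.01 to 0.90. Cpz had differences of 1.01 ± 0.30 and 1.62 ± 0.31, and Cd34 of 0.50 ± 0.22 and 0.92 ± 0.22. Cpz was at 78.6, 62.9, 52.1, 65.3 and 62.7 CPM in the frontal SM at E16.5, against 28.8 to 34.6 CPM in FR. At E18.5 it was at 115.2, 125.7, 72.3, 99.3 and 107.3 CPM against 10.6 to 55.6 CPM. SM lay above FR in every library of both ages, a separation found in 8.92% and 5.76% of all genes. Cd34 also lay above FR in every library, at 51.7 to 77.9 against 31.3 to 50.03 CPM and at 43.5 to 54.5 against 9.69 to 37.7 CPM. Markers of other cell types were also higher in the frontal SM, with 2 of 4 tendon markers called at E16.5 and 4 of 4 at E18.5 (summing to 826 to 931 against 230 to 367 CPM) and 3 and 6 of 7 ectocranial markers. Mast cell markers, with 2 of 5 called at E18.5, summed to 295 to 452 against 47.8 to 258 CPM, and chondrocyte markers, with 1 of 5 called at each age, to 277 to 400 against 93.8 to 166 CPM at E16.5. No endothelial marker of 8 was called at either age. Nor were Efhd1, Emilin2, Igfbp6 and Sema3c of the fascial markers, with differences of 0.13 to 1.07. The other fascial markers are not given here. For SM against OF the whole fascial list is given only in the lambdoid suture, so its counts there are not shown to be particular to that suture. The part of these cells, and of cell types not listed here, in the differences was not tested.

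In the sagittal suture the contrast differed between the genes. It was lowest at E16.5 for Mfap5 (-0.76 ± 0.685) and Ly6a (-0.76 ± 0.64). Cd34 in the sagittal SM was at 57.0 to 79.2 CPM at E16.5 and 50.3 to 63.5 CPM at E18.5, above the PA libraries of its age (10.8 to 24.7 and 18.1 to 36.2 CPM), with differences of 1.76 ± 0.23 and 1.09 ± 0.22. Cpz was at 60.2 to 76.1 and 60.9 to 85.2 CPM in SM, again above every PA library, with differences of 1.47 ± 0.31 and 0.81 ± 0.30. Dpt at E18.5 was at 25.8, 25.8, 15.2, 16.4 and 32.4 CPM against 2.14 to 8.83 CPM in PA (2.28 ± 0.62), and its difference at E16.5 was 0.44 ± 0.59. Tnxb in SM at E18.5 also lay above all PA libraries (3.06 to 6.16 against 0.496 to 2.32 CPM, a difference of 1.82 ± 0.73, or 1.92 with the embryo as a replicate block). The groups of 5 and 5 libraries stood apart with SM above in 14.6% and 14.7% of all genes at E16.5 and E18.5. Pi16 was at 1.26 to 6.10 CPM in SM at E16.5 and 1.40 to 4.75 at E18.5, overlapping PA, with differences of -0.03 ± 0.82 and 1.06 ± 0.85. In the sagittal SM all 4 tendon markers were called higher at both ages, as were 4 of 7 ectocranial markers at E16.5 and 7 of 7 at E18.5. Chondrocyte markers, with 3 and 2 of 5 called, summed to 288 to 416 against 62.3 to 73.8 CPM at E16.5 and to 298 to 356 against 58.8 to 84.0 CPM at E18.5, and 4 of 5 mast cell markers were called at E18.5. The part of these cells, and of cell types not listed here, in the differences was not tested.

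In the coronal suture too the genes went separate ways. Cd34 was higher in SM at both ages (1.03 ± 0.18 and 1.45 ± 0.18), Mfap5 (-2.84 ± 1.00 and -2.27 ± 0.70) and Cpz (-2.64 ± 0.31 and -2.07 ± 0.29) were lower in SM, and Dpp4 (0.23 ± 0.61 and -0.19 ± 0.61) and Tnxb (0.56 ± 0.97 and -0.05 ± 0.58) had differences within their standard errors of 0.

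Cd34 in the coronal SM was at 40.5, 88.8, 69.8, 43.5 and 49.1 CPM at E16.5 against 18.2 to 43.1 CPM in the OFs, and at 209.6, 247.8, 222.4, 147.2 and 168.3 CPM at E18.5 against 24.2 to 133.9 CPM. The E18.5 groups did not overlap, and nothing is read from this separation. Of 8 endothelial markers, 2 at E16.5 and 3 at E18.5 were called higher in the coronal SM and 0 lower, with medians of 0.51 and 0.92 on the log2 scale, and they summed to 243 to 295 CPM in SM at E18.5 against 163.1 to 390.7 in FR and 55.1 to 92.02 in PA. Pericyte and smooth muscle markers were called higher in 6 of 7 at E16.5 and 0 of 7 at E18.5, and macrophage markers in 0 and 4 of 7. The part of these cells, and of cell types not listed here, in the differences was not tested. Cpz was at 5.15, 5.30, 2.08, 2.77 and 1.57 CPM in SM at E16.5 and at 9.33, 3.39, 5.10, 5.06 and 7.12 CPM at E18.5. The lowest OF libraries of these ages held 8.08 and 14.5 CPM, so that every SM library lay below every OF library, a separation found in 1.95% and 1.85% of all genes. This is the reverse of the order of Cpz in the frontal and sagittal sutures.

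Pi16 rested on a single library in the coronal SM at E16.5. It was at 10.45 CPM (207 read pairs) in replicate 1, at 0 in replicates 2, 3 and 4 and at 0.0605 CPM (1 read pair) in replicate 5, against 0 to 2.5 CPM in the OFs. The fitted difference was 1.89 ± 0.74, although SM exceeded the mean of the fronts in 1 of 5 embryos. It was -4.78 without replicate 1 of every group, 4.43 without replicate 4, -0.54 with the embryo as a replicate block and -1.0 with the second libraries in place of the first. At E18.5 Pi16 was at 0.234, 0.134, 0.239, 0.284 and 0.0445 CPM in SM, and at 2.22, 0.132, 4.03, 6.87 and 4.54 CPM in PA, with a difference from both fronts of -2.69 ± 0.94. It was -2.28 with the replicate block and -1.95 without replicate 5. Ly6a had a difference of 3.61 ± 0.67 at E16.5, from SM levels of 0.909, 1.63, 5.28, 0.160 and 0 CPM against 0 to 0.756 CPM in the OFs, and of 0.66 ± 0.52 at E18.5. With the second libraries the E16.5 difference of Ly6a was -0.41 and that of Mfap5 -1.28. Mfap5 had 0, 15, 1, 0 and 0 read pairs in the SM libraries of E16.5. Its difference was -1.11 without replicate 1, -5.87 without replicate 2 and -2.14 without replicate 3, and the E18.5 difference was -1.66 without replicate 4. Clec3b had no read pair in the 10 coronal SM libraries of both ages. Against the PA at E18.5, with 114 read pairs and a mean of 1.05 CPM, it was at least 39.3-fold lower in SM, taking 3 counts over the group as the limit that a count of 0 allows (0.0266 CPM). Of those 114 read pairs, 72 came from a single PA library and 34 from another. The second libraries do not bear out a bound of that size. Clec3b had 0, 2 and 9 read pairs in their SM at E18.5 (0 to 0.691 CPM) against 14, 23 and 61 in PA (0.969 to 4.70 CPM), and with them in place of the first the difference from both fronts was -1.61.

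Averaged over the ages, the difference of SM from OF ranged widely among the sutures for most of the genes, which is again a description of the contrast that chose them. Of all genes, 20% were called for a difference of this kind. Dpp4 ran from 0.02 on the log2 scale in the coronal to 2.40 in the lambdoid suture, Dpt from 0.10 to 2.67 and Mfap5 from -2.56 to 2.14, each with the coronal suture lowest and the lambdoid highest. Cpz ran from -2.35 in the coronal to 1.32 in the frontal suture, and Ly6a from -0.13 in the sagittal to 2.13 in the coronal suture, which rests on the E16.5 value that was -0.41 with the second libraries. Cd34 had the narrowest span, from 0.71 in the frontal to 1.65 in the lambdoid suture, and was above 0 in all 4. Pi16 ran from -0.40 in the coronal to 1.90 in the lambdoid suture, and Tnxb from 0.26 to 2.10. In the mean of the 4 sutures and both ages the differences were 1.26 ± 0.07 for Cd34, 1.16 ± 0.19 for Dpt, 1.02 ± 0.25 for Tnxb, 1.01 ± 0.21 for Ly6a, 0.88 ± 0.23 for Dpp4, 0.49 ± 0.28 for Pi16, 0.14 ± 0.10 for Cpz and 0.03 ± 0.33 for Mfap5, with no such mean for Clec3b, which was at 0 in the coronal SM. With the second coronal libraries the mean of Ly6a was 0.41. Without the coronal libraries, a setting chosen after seeing the data, the means of all 9 genes lay between 0.65 (Ly6a) and 1.52 (Dpt), where 63.7% of all genes were called in either direction.

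With age, the largest changes were in the coronal suture, where 27.1% of all genes in SM and 33.1% in OF changed between E16.5 and E18.5. The genes were named with earlier results of these data known. Adjusted p values between the ages, here and below, are therefore not shown to be free of that choice. In the coronal SM, Cd34 (1.77 ± 0.22 on the log2 scale, adjusted p = 2.42e-09), Dpt (4.86 ± 0.67, adjusted p = 3.19e-08), Tnxb (3.99 ± 0.86, adjusted p = 0.000231), Ly6a (2.35 ± 0.65, adjusted p = 0.00426) and Cpz (0.82 ± 0.32, adjusted p = 0.0482) rose, by the quasi-likelihood test of edgeR, adjusted over all genes by the Benjamini-Hochberg method. The share of all genes that rose there was 13.5%. Dpt in the coronal SM was at 0.454, 7.74, 8.43, 4.64 and 0.484 CPM at E16.5 and at 79.5, 141.4, 118.8, 135.7 and 168.0 CPM at E18.5, without overlap. Tnxb was at 0, 0, 0.125, 0.907 and 0 CPM and then at 1.17, 0.535, 4.99, 7.52 and 2.18 CPM. Pi16 fell by 3.43 on the log2 scale (SE 1.00, adjusted p = 0.00614), on the E16.5 values given above. Without replicate 1 of every group the change was 3.17 (adjusted p = 0.193), and limma voom gave 0.89 (adjusted p = 0.722, and 0.88 with the embryo as a replicate block). Pi16 was also not called with the second libraries (-2.72, adjusted p = 0.0975) or with the coronal suture by itself (-3.44, adjusted p = 0.251). Mfap5 (2.53 ± 1.04, adjusted p = 0.058) did not pass, and Dpp4 gave no call. All 7 macrophage markers rose in the coronal SM between the ages too, beside 0 of 8 endothelial markers and 3 of 12 fascial markers that rose and 3 that fell. Chondrocyte markers, of which 1 of 5 rose, summed to 48.1 to 114 CPM at E16.5 and 186.7 to 307 CPM at E18.5 in the coronal SM, and the median number of genes detected was 20936 and 23305. Their part in the changes was not tested.

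The calls of Cd34 and Dpt in the coronal SM held under all 14 alternatives run, which included other scaling, filters and tools, the coronal suture fitted by itself, the second libraries instead of the first, and the removal of each replicate number. Tnxb lost its call with the second libraries (1.08, adjusted p = 0.46) and with the coronal suture by itself (3.99, adjusted p = 0.111). Ly6a lost it with the coronal suture by itself (2.38, adjusted p = 0.174) and without replicate 4 (1.72, adjusted p = 0.0636), and was at 3.55 without replicate 3. Cpz lost it under 9 of the 14, among them the voom fit with the replicate block (adjusted p = 0.229) and each fit without replicate 1, 3, 4 or 5.

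In the frontal, lambdoid and sagittal SM none of the 9 genes was called between the ages, where 2.33%, 2.96% and 1.12% of all genes were. In the mean over the 4 sutures, Cd34 (0.32 ± 0.11, adjusted p = 0.0368), Dpt (1.00 ± 0.29, adjusted p = 0.0138) and Cpz (0.58 ± 0.15, adjusted p = 0.0057) rose in SM, where 11.1% of all genes changed. Without the coronal libraries, a setting chosen after seeing the data in which 18.4% of all genes changed, the means of Cd34 (-0.16, adjusted p = 0.377) and Dpt (-0.30, adjusted p = 0.499) turned to the other sign, Cpz kept its rise (0.50, adjusted p = 0.00332), and Mfap5 fell by 0.90 (adjusted p = 0.0247). Of the means over all sutures, that of Cd34 lost its call without replicate 1, 2, 3 or 4 (0.22 to 0.34), that of Dpt without replicate 2 (0.93, adjusted p = 0.0621) and that of Cpz without replicate 1 (0.52, adjusted p = 0.0576). With the second coronal libraries all 3 lost their calls (Cd34 0.24, adjusted p = 0.294, Dpt 0.80, adjusted p = 0.0587, and Cpz 0.44, adjusted p = 0.122).

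In the coronal OFs 6 of the 9 genes rose. Ly6a rose from 0 to 0.756 CPM to 0.651 to 13.1 CPM (5.30 ± 0.61 on the log2 scale, adjusted p = 2.54e-11), Tnxb rose by 4.59 ± 0.70 (adjusted p = 1.62e-07), Dpt by 3.12 ± 0.44 (adjusted p = 1.87e-08), Mfap5 by 1.95 ± 0.57 (adjusted p = 0.00494) and Cd34 by 1.36 ± 0.16 (adjusted p = 3.6e-11). At E16.5 Ly6a rested on 4 read pairs in FR and 34 in PA, and Tnxb on 2 and 71, with 4 of 5 FR libraries at 0 for each. Clec3b rose by 3.2 ± 0.97 (adjusted p = 0.00714), from 9 read pairs in 1 of 10 coronal OF libraries at E16.5 to 120 read pairs in 6 of 10 at E18.5. Clec3b lost its call without replicate 3 (2.58, adjusted p = 0.0515) or 4 (2.35, adjusted p = 0.214), with the second libraries (0.29, adjusted p = 0.847), with the coronal suture by itself (3.45, adjusted p = 0.0975) and with the replicate block in voom (1.82, adjusted p = 0.102), and was at 5.18 without replicate 2. Mfap5 lost it with the second libraries (0.60, adjusted p = 0.516), with the coronal suture by itself (1.92, adjusted p = 0.199) and without replicate 4 (1.27, adjusted p = 0.0938), and was at 3.36 without replicate 1, and Ly6a kept it at 2.36 with the second libraries. Of the 19768 genes, 18% (3568) rose in the coronal OFs. Of 7 pericyte and smooth muscle markers 6 rose there and 1 fell, and they summed to 109 to 316 CPM in FR at E16.5 and 468 to 1056 at E18.5, and to 60 to 147 and then 273 to 442 CPM in PA. Macrophage markers rose in 5 of 7. Osteoblast markers, of which 1 of 9 rose and 1 fell, summed to 6951 to 14620 CPM in FR at E16.5 and 2645 to 6007 at E18.5, and in PA to 9407 to 14050 and 6206 to 14270 CPM. The median number of genes detected was 19772 in FR and 19930 in PA at E16.5, against 24509 and 22424 at E18.5. The part of these values, and of cell types not listed here, in the changes was not tested. In the lambdoid OFs, where 3.29% of all genes changed and 1.65% fell, Dpt fell by 1.53 (SE 0.43, adjusted p = 0.0264) and Mfap5 fell by 1.93 (SE 0.50, adjusted p = 0.012). Dpt was at 7.59 to 39.2 CPM in the lambdoid OFs at E16.5 and at 1.11 to 18.9 CPM at E18.5. In the frontal FR, where 4.34% of genes changed and 2.15% fell, Cd34 fell by 0.73 (SE 0.22, adjusted p = 0.0396), from 31.3 to 50.03 CPM to 9.69 to 37.7 CPM. Mfap5 in the sagittal PA had a difference of -2.55 ± 0.75 that missed the threshold (adjusted p = 0.0567). These 3 calls outside the coronal suture were near the threshold, and the part of other cell types in them was not tested. Dpt lost its call without replicate 1, 2, 3 or 5 (-1.04 without replicate 5, adjusted p = 0.233), Mfap5 without replicate 3 or 5 (-1.55 without replicate 5, adjusted p = 0.129) and Cd34 without replicate 2, 4 or 5 (-0.51 without replicate 5, adjusted p = 0.38), and with the replicate block in voom the adjusted p of Dpt was 0.2 and that of Cd34 0.115.

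In the mean over the sutures, Ly6a (0.93 ± 0.29, adjusted p = 0.0218) and Cpz (0.45 ± 0.13, adjusted p = 0.0138) rose in OF, where 12.2% of all genes changed. Without the coronal libraries, where 21.8% of all genes changed, Pi16 (-0.81, adjusted p = 0.0444), Dpp4 (-1.32, adjusted p = 0.00113), Dpt (-1.19, adjusted p = 0.000497), Clec3b (-1.19, adjusted p = 0.0189), Mfap5 (-1.82, adjusted p = 2.51e-06) and Tnxb (-1.08, adjusted p = 0.00222) fell in the mean of the frontal, lambdoid and sagittal OFs, Cpz rose (0.53, adjusted p = 0.000724), and Ly6a was at -0.51 (adjusted p = 0.173). Fitted by themselves, the lambdoid OFs had Dpp4, Dpt, Mfap5 and Tnxb lower and Cpz higher at E18.5, where 10.3% of all genes changed, and the sagittal PA had Dpp4, Mfap5 and Tnxb lower and Cpz higher, where 11.9% changed. The lambdoid SM by itself had Mfap5 lower (-1.63, adjusted p = 0.0321), where 8.85% changed, and so had voom with the replicate block (-1.85, adjusted p = 0.0116). The part of other cell types in these changes of the lambdoid and sagittal regions was not tested. The same block in voom called Dpp4 higher at E18.5 in the coronal OFs (1.99, adjusted p = 0.034). In the mean over all sutures Ly6a lost its call without replicate 2, 4 or 5 (0.85 to 0.90) and in voom with the replicate block (adjusted p = 0.083), and Cpz lost it without replicate 2 (0.37) or 4 (0.44). With the second coronal libraries neither was called (Ly6a 0.20, adjusted p = 0.78, and Cpz 0.36, adjusted p = 0.138).

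**Figure D3:**
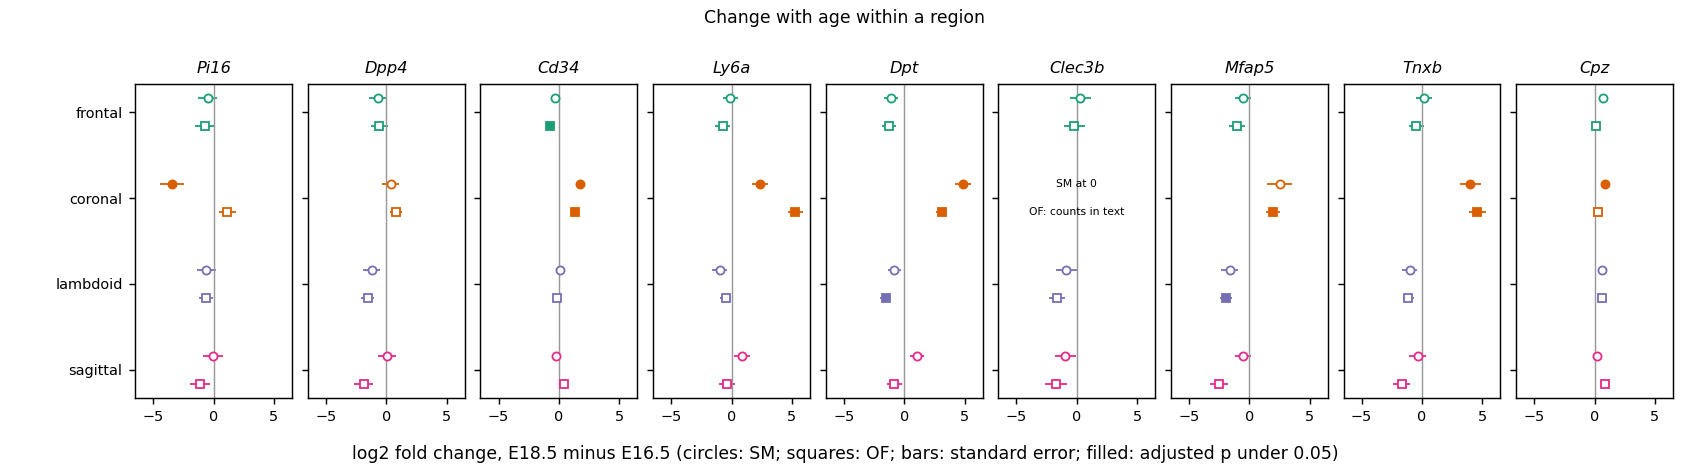
Change from E16.5 to E18.5 of the 9 genes in SM and in OF of each suture, as fitted log2 fold changes with their standard errors. Circles are SM, squares OF, bars standard errors, and filled symbols have an adjusted p under 0.05. Most filled symbols are coronal (orange), with Dpt in SM at 4.86 and Ly6a in OF at 5.30. No SM symbol of another suture is filled.

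Of all genes, 7.62% were called for a change with age that differed between SM and OF in the coronal suture, and nothing is read from the members among them. For Pi16 the SM minus OF difference was lower at E18.5 than at E16.5, with a change of -4.57 on the log2 scale (SE 1.196), and for Ly6a likewise, with -2.95 (SE 0.88). Without replicate 1 the change of Pi16 was 1.86 and that of Ly6a -4.64, and without replicate 4 that of Pi16 was -7.01. With the replicate block Pi16 was at -1.73, and without replicate 3 Ly6a was at -1.79. Both are differences of the contrast that chose the genes and are given as a description. In the frontal, lambdoid and sagittal sutures 0.00506%, 0.126% and 0.0304% of all genes were called in this way.

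The fronts of a suture were compared with each other. The genes were named for SM against OF, with earlier results of these data known. The adjusted p values between fronts are therefore not shown to be free of that choice. In the coronal suture at E16.5, Mfap5 was lower in FR than in PA by 3.79 ± 0.90 on the log2 scale (adjusted p = 0.00217), at 1.44, 0, 0, 0 and 0.117 CPM in FR and 0.580, 5.81, 14.2, 0 and 0.921 CPM in PA. Tnxb was lower in FR by 4.44 ± 1.34 (adjusted p = 0.0161), on 2 read pairs in FR and 71 in PA. At E18.5, Pi16 was lower in FR than in PA by 3.01 ± 0.91 (adjusted p = 0.0302) and Clec3b by 4.17 ± 1.07 (adjusted p = 0.00855, on 6 and 114 read pairs). Pi16 was at 0.127, 0, 0.184, 0.650 and 1.19 CPM in FR, overlapping the PA values through PA replicate 2. Cd34 and Dpt went the other way. Cd34 was higher in FR by 1.52 ± 0.22 (adjusted p = 6.47e-07), at 111.5, 133.9, 121.0, 126.7 and 125.9 CPM against 55.2, 24.2, 38.3, 49.0 and 48.5 CPM in PA, without overlap. Dpt was higher in FR by 2.10 ± 0.59 (adjusted p = 0.0162), at 69.1 to 180.7 CPM against values up to 57.7 CPM in PA. Of all genes, 14.4% differed between the coronal fronts at E16.5 and 5.44% at E18.5. Cd34 kept its call in FR under all 14 alternatives. Fitted by itself, the coronal suture called Cd34 and none of the other 5. Mfap5 was at -7.17 without replicate 1 and lost its call without replicate 3 (-2.27, adjusted p = 0.146), Tnxb lost it without replicate 2 (-2.90, adjusted p = 0.188) or 3 (-4.18, adjusted p = 0.0716), and Clec3b without replicate 3 (-2.62, adjusted p = 0.241). Dpt lost it without replicate 1 (2.13, adjusted p = 0.0528) or 2 (1.87, adjusted p = 0.0938), and Pi16 without replicate 1, 2, 3 or 4 (adjusted p = 0.0556 to 0.139).

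Beside the higher Cd34 in FR at E18.5, all 8 endothelial markers were called higher in FR, with summed levels of 163.1 to 390.7 CPM in FR and 55.1 to 92.02 CPM in PA, and 5 of 7 markers of pericytes and smooth muscle. Dura mater markers were called higher in FR in 4 of 8 and lower in 1, with a median of 1.00. Osteoblast markers, of which 1 of 9 was called lower in FR, summed to 2645 to 6007 CPM in FR and 6206 to 14270 in PA, and the median number of genes detected was 24509 and 22424. The part of these values, and of cell types not listed here, in the differences of Cd34, Dpt, Pi16 and Clec3b between the fronts was not tested. Nor was the part of other cell types in the E16.5 differences of Mfap5 and Tnxb. In the lambdoid suture none of the 9 genes was called between IP and PA, where 0.486% of all genes at E16.5 and 0.0101% at E18.5 were. The lambdoid IP had the higher median of Pi16 at both ages (20.7 against 8.50 CPM and 8.41 against 5.13 CPM), with overlapping ranges.

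Across libraries, 7 of the genes, Pi16, Dpp4, Ly6a, Dpt, Clec3b, Mfap5 and Tnxb, varied together within the groups of a suture and age. Over the 70 libraries outside the coronal suture, with the mean of each suture and age removed, Pearson's r between pairs of these 7 genes was 0.666 to 0.860 (median 0.779, 21 pairs). In the 30 lambdoid libraries it was 0.726 to 0.939, in the 20 frontal libraries 0.484 to 0.922 and in the 20 sagittal libraries 0.335 to 0.845. In the 30 coronal libraries it was -0.326 to 0.566 (median 0.203). The points of each r share their libraries, depth and the difference between SM and OF. Cpz stood outside the set, with r of 0.123 to 0.653 to the other genes over the 70 libraries.

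The 3 genes most like Pi16 over all 100 libraries, each centred on its suture and age, were Col6a6 (r = 0.737), Efhd1 (0.653) and Clec3b (0.631). For Dpp4 they were Emilin2 (0.662), Tnxb (0.653) and B830012L14Rik (0.648), for Mfap5 Col6a6 (0.716), Tpsb2 (0.676) and Clec3b (0.665), and for Clec3b Mfap5 (0.665), Krtdap (0.654) and Tpsb2 (0.648). Tpsb2, a mast cell tryptase, was also among the 3 for Tnxb (0.648), after Rspo2 (0.664) and Dpp4 (0.653). For Ly6a they were Itih5 (0.644), Fbn1 (0.631) and Ntn1 (0.628), and for Dpt Ccn3 (0.727), Sulf1 (0.689) and Fbn1 (0.674). Cd34 and Cpz had other and closer neighbours, Lamb1 (0.878), Rab3il1 (0.866) and Fstl1 (0.863) for Cd34, and Map1a (0.791), Adam19 (0.783) and Aqp1 (0.747) for Cpz. These are descriptions over libraries that share a suture, depth and region.

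A list of 40 other genes known from adventitial, fascial and reticular fibroblasts was set beside them. This list too was chosen with earlier results of these data known, and SM against OF was the contrast that chose the members. Its counts are therefore a description. Efhd1, Emilin2, Igfbp6 and Sema3c stand both on this list and among the fascial markers, so that the counts of these lists overlap. In the lambdoid SM 19 of the 40 were called higher and 5 lower at E16.5, where 9.84% and 12.8% of all genes were, against 17 and 7 at the later age, where 12.2% and 15.8% were. Their medians there were 0.93 and 0.77 on the log2 scale, against 0.01 and 0.02 over all genes. In the coronal SM 12 were called higher and 12 lower at E16.5 (20.9% and 16.6% of all genes), against 7 and 10 later (5.7% and 6.69%). In the frontal suture 6 were higher and 5 lower at E16.5 (2.76% and 5.15% of all genes), against 7 and 9 later (4.23% and 6.88%). In the sagittal suture 12 were higher and 7 lower at E16.5 (6.58% and 11.2% of all genes), against 11 and 11 later (10.8% and 14.5%). The list medians in these 3 sutures ran from 0.08 to 0.37. Averaged over the sutures and ages, 20 were higher and 10 lower in SM, beside 27.6% and 27.8% of all genes. The highest were Col14a1 (2.18 ± 0.16), a fibril-associated collagen, Entpd2 (1.6 ± 0.29), Mfap4 (1.57 ± 0.07) and Ccl11 (1.43 ± 0.41), and the lowest Smpd3 (-5.14 ± 0.21), Pcolce2 (-3.59 ± 0.22), Adgrd1 (-2.63 ± 0.10) and Gsn (-1.78 ± 0.06). Smpd3 is a sphingomyelinase known from bone formation, and Pcolce2 an enhancer of procollagen processing.

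The complete E18.5 sutures gave another order. In the labels each suture has 1 replicate in 4 library sets, which are read here as repeat libraries of a single sample, and no test was made. By the median, the captured lambdoid SM was the highest of the 4 SM groups at E18.5 for Pi16, Dpp4, Ly6a, Mfap5, Tnxb and Clec3b. It was not the highest for Cd34, Dpt and Cpz. The complete lambdoid suture was the lowest of the 4 in every library set for Dpp4 (1.73 to 2.35 CPM), Ly6a (2.00 to 4.51), Dpt (1.40 to 2.36), Mfap5 (7.00 to 11.2) and Cpz (51.5 to 61.8), and in 3 of 4 sets for Pi16 (0.139 to 0.930). For Clec3b it was lowest in 1 of 4 sets (0.346 to 1.18 CPM) and for Tnxb in 0 of 4 (2.84 to 4.54). The frontal and sagittal sutures held the highest Pi16, in 2 sets each (2.32 to 4.05 and 2.17 to 4.86 CPM). The complete coronal suture was highest in all 4 sets for Cd34 (90.4 to 97.9 CPM) and Dpt (21.8 to 31.5) and lowest for Tnxb (0.871 to 2.67). Skeletal muscle markers summed to 1540 to 1899 CPM in the complete lambdoid suture and 626.3 to 771.3 in the coronal, against 10.2 to 21.3 in the frontal and sagittal. Chondrocyte markers summed to 3960 to 6033 CPM in the lambdoid, 816.7 to 1212 in the sagittal, 171.2 to 245.1 in the coronal and 152.6 to 172.0 in the frontal. Osteoblast markers summed to 7074 to 10300 CPM in the coronal, 4640 to 6547 in the lambdoid, 2085 to 2669 in the frontal and 1946 to 2854 in the sagittal. The part of these cells in the order was not tested.

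**Figure D4:**
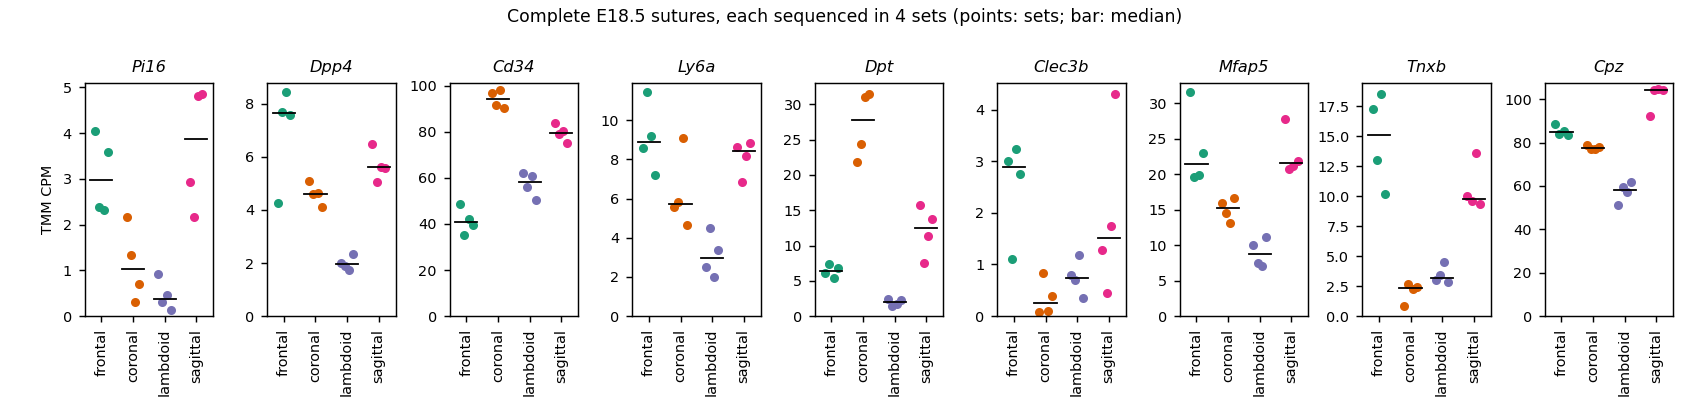
Levels of the 9 genes in the complete E18.5 sutures, with 4 libraries per suture, read as repeats of a single sample. Points are libraries on an axis of CPM that starts at 0, and the bar is the median. The lambdoid points are the lowest for Dpp4, Ly6a, Dpt, Mfap5 and Cpz, and the coronal points the highest for Cd34 and Dpt.

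Second libraries of 18 coronal regions, whose making the labels do not describe, were set beside the first library of the same embryo and region. Across the 18 pairs, Pearson's r of log2 CPM was 0.938 for Cd34, 0.922 for Dpt and 0.822 for Cpz, and 0.612 to 0.692 for Mfap5, Ly6a, Pi16 and Tnxb. It was 0.378 for Clec3b, which had no read in 13 first and 6 second libraries, and -0.124 for Dpp4. The medians over the first and second libraries were 2.56 and 2.44 CPM for Dpp4, 0.281 and 1.26 for Pi16, 1.14 and 3.84 for Mfap5, 0.874 and 2.11 for Tnxb, 3.11 and 4.32 for Ly6a, 16.9 and 31.3 for Cpz, 47.2 and 73.4 for Cd34, 17.2 and 12.9 for Dpt, and 0 and 0.417 for Clec3b. The pairs share the embryo and region, and the SM and OF groups add to each r.

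Single cells of the coronal suture placed the genes in cells. After filters, 466 and 337 cells (libraries 1 and 2) remained at E16.5, with medians of 2501 and 2121 UMIs, and 2412 and 1577 cells at E18.5, with medians of 18476 and 7131 UMIs. The sutures were pooled, their dissection aimed to leave out the membranes around the bones, and chemistry differed between the ages, so that no level was compared between them. Cell barcodes shared by libraries numbered 1 for the E16.5 pair and 5 for the E18.5 pair, doublets were not called, and the 9 genes took no part in the clustering. With 2 libraries per age that differ in makeup, values are given without tests, with exact Poisson intervals for CPM and Wilson intervals for shares, which cover counting error only.

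At E16.5, 8 of the 9 genes were highest in the same cluster of 122 cells, of which 121 came from library 1. Its leading genes were Krtdap, Ptgs1 and Igfbp6, and with Igfbp6, Emilin2 and Efhd1 among its top 10 it was fascial fibroblast-like. Pi16 had 231 UMIs there (758.5 CPM), and no other cluster exceeded 11.0 CPM. Dpp4 was at 351.3 CPM against 7.32 in the next cluster, Tnxb at 308.6 against 7.32, Dpt at 883.2 against 25.6, Clec3b at 912.8 against 29.3, Ly6a at 1307 against 98.8 and Mfap5 at 3224 against 310.9. Cd34 was less particular, at 755.2 CPM there and 560.6 CPM in the endothelial-like cluster. Cpz was highest elsewhere, at 470.5 CPM in an unnamed cluster of 48 cells led by Nppc and Fxyd5. At a finer resolution of 1.2 the cluster split in 2, of 108 and 13 cells, with 30 components it held the same number of cells, and with a minimum of 500 detected genes it was found as 129 and 13 cells without enough markers for a name.

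Within these 121 cells, Pi16 was detected in 98 cells (81.0%), Cd34 in 95 and Dpp4 in 65 (53.7%). Pi16 and Dpp4 were found together in 52 cells and all 3 genes in 45. In macrophage-like cells of the same library, which should lack the genes and had a median of 2026 UMIs against 2298, Pi16 was detected in 1 of 64 cells and Dpp4 in 1. At least 3 of the 7 genes named above were detected in 119 of the 121 cells. Over the whole library the share was 26.8% (125 of 466, 95% interval 23.0% to 31.0%) in library 1 and 0.297% (1 of 337, 0.0524% to 1.66%) in library 2. With each cell thinned to the same number of UMIs the shares were 25.5% and 0.518%, a difference about as large as without thinning. The fascial fibroblast-like cells thus came almost wholly from library 1. A difference between the pools of sutures and one between the libraries cannot be told apart.

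**Figure D5:**
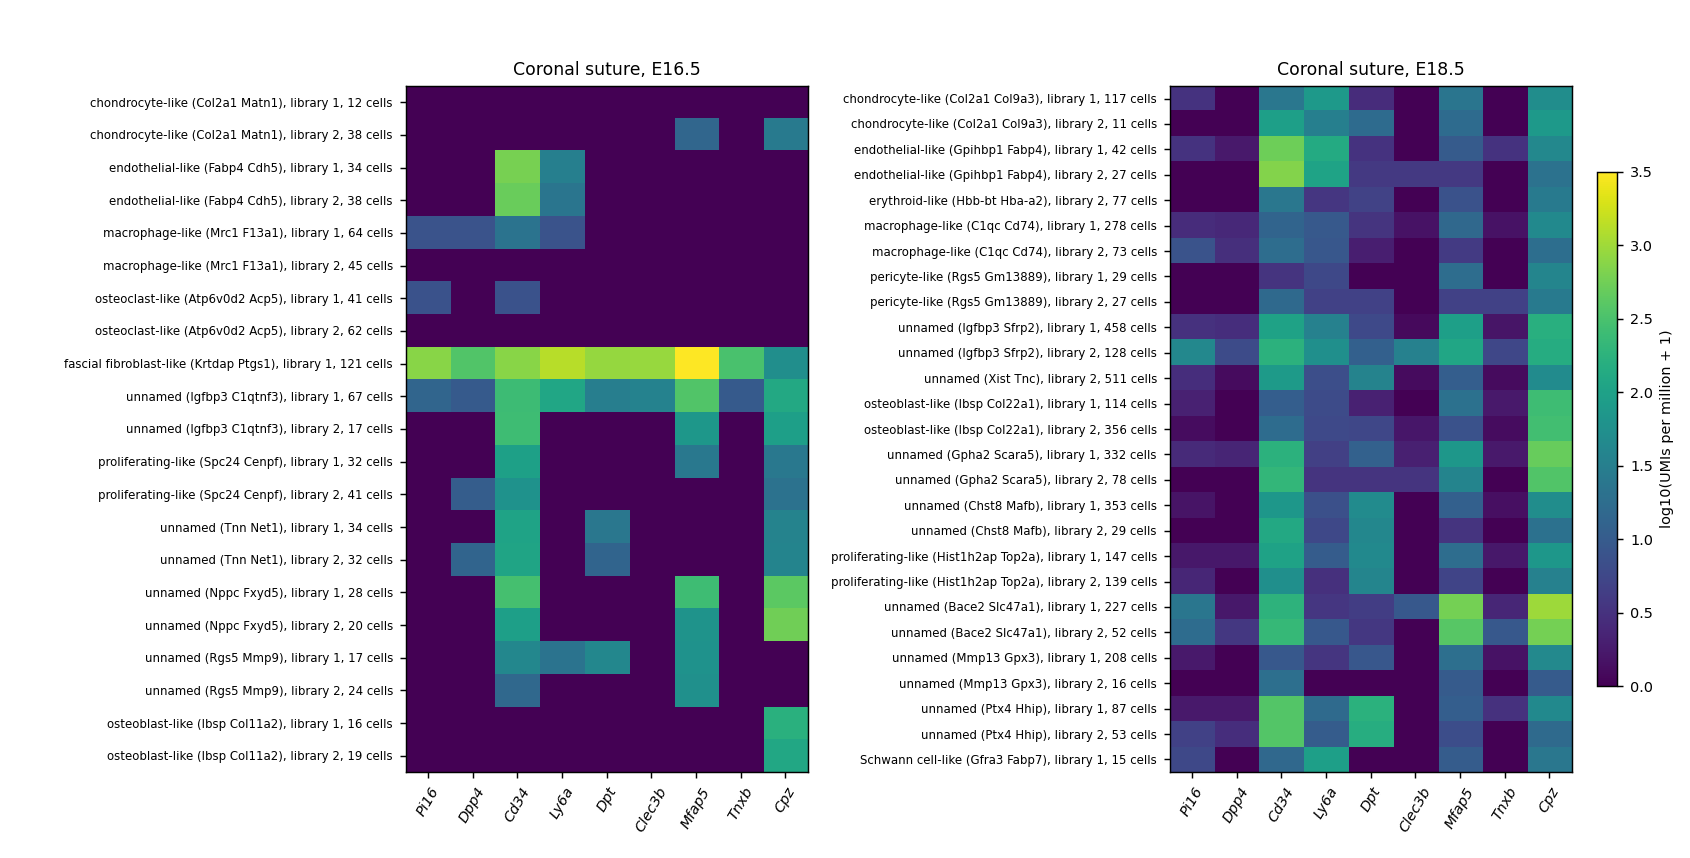
Level of the 9 genes in each cluster of the coronal single cells at E16.5 and E18.5, as CPM of the UMIs summed over the cells of a cluster. Each row is a cluster in 1 library with its number of cells (at least 10), and the colour gives log10 of CPM with 1 added. At E16.5 the row of 121 fascial fibroblast-like cells is the brightest for all genes but Cpz, and at E18.5 the rows led by Bace2 are the brightest for Cpz and Mfap5.

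At E18.5 no cluster had enough markers to be named so. At least 3 of the 7 genes were detected in 46 of 2412 cells (1.91%, 95% interval 1.43% to 2.53%) and 10 of 1577 (0.634%, 0.345% to 1.16%), and in 0.0415% and 0.127% after thinning. In library 1 Pi16 was highest in an unnamed cluster led by Bace2 and Slc47a1, at 22.4 CPM, with a UMI in 36 of 227 cells (15.9%, median 17475 UMIs), against 11 of 278 macrophage-like cells (3.96%, median 18649 UMIs). The Wilson intervals were 11.7% to 21.2% and 2.22% to 6.95%. Thinning left 4 and 1 cells, with intervals of 0.687% to 4.44% and 0.0635% to 2.01%, which overlapped. In library 2 it was found in 3 of 52 cells of this cluster (5.77%, median 6678 UMIs, 16.49 CPM) and in 6 of 73 macrophage-like cells (8.22%, median 13598 UMIs), and after thinning in 3 of 52 and 2 of 73 (2.74%). The intervals of both pairs of shares in library 2 overlapped, so that no detection above background is read in that library. After thinning, none is read in library 1 either, where Pi16 was found in 2 of 42 endothelial-like cells (4.76%). The same cluster was highest for Cpz (974.0 and 577.3 CPM in libraries 1 and 2) and Mfap5 (582.4 and 384.9) in both libraries, and for Clec3b in library 1 (8.16). Dpp4 did not exceed 5.40 CPM in any cluster of either library, and Tnxb 8.25 CPM. In library 2, 46 UMIs of Pi16 came from 4 of 128 cells of a cluster led by Igfbp3 and Sfrp2 (41.4 CPM), the highest of that library for Pi16 and for Clec3b (33.3 CPM).

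Cd34 at E18.5 was highest in the endothelial-like cells (563.4 CPM) and next in an unnamed cluster of 140 cells led by Ptx4 and Hhip (365.4 CPM), where it was detected in 85 of 87 cells of library 1 and 47 of 53 of library 2, with medians of 12415 and 9952 UMIs. In macrophage-like cells it was found in 54 of 278 and 16 of 73. After thinning the shares were 50.6% and 49.1% against 1.8% and 6.85%. Dpt was highest in this Hhip-expressing cluster, at 173.4 CPM (152.1 to 196.7) in library 1 and 151.0 (119.5 to 188.1) in library 2, against 47.7 CPM in the next cluster. Ly6a was highest in the endothelial-like cells (129.2 CPM). Cpz was found in 100% and 94.2% of the cells of the Bace2-led cluster in the 2 libraries, against 52.2% and 23.3% of macrophage-like cells. After thinning these were 81.1% and 73.1% against 10.8% and 2.74%. Osteoblast-like cells held Cpz at 255.6 and 274.7 CPM.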

How the data were processed

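Members and lists were chosen with earlier results of these data known. For the captured regions and complete sutures, the authors trimmed reads with cutadapt, aligned them to mm10 with STAR 2.5.3a and counted read pairs per GENCODE vM22 gene with featureCounts 1.6.4 without regard to strand, and deposited whole-number counts without normalization. For single cells, the authors deposited counts of UMIs per gene and barcode, read here as the Cell Ranger output. A deposited table of the authors' own log2 ratios between groups was not used. Of 55487 gene identifiers, 55394 matched a symbol. RNA had been amplified (Ovation RNA-Seq V2) before Nextera XT libraries were made, so that reads of low genes are not independent molecules, and intervals cover counting error only. Without strand, reads on the 3.5% of exonic bases of Pi16, 3.7% of Dpp4 and 2.0% of Cd34 that other genes share cannot be told apart, and Ly6a may share reads with its paralogs.

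The 19768 genes that reached 1 CPM in more than 10% of the 100 captured first libraries were scaled by TMM and fitted with 1 mean per group by the quasi-likelihood test of edgeR 4.0.16 in R, two-sided, with Benjamini-Hochberg adjustment over all genes of a comparison at 0.05. Each fold change is a difference of fitted log2 CPM, and its standard error is its size divided by the square root of F. In the labels each replicate of a suture and age has its own litter ID, which its regions share and which is read here as an embryo. Residuals of 60 pairs of regions of an embryo had a median correlation of 0.0474 against -0.0114 for other pairs, and 15 exceeded 0.1. The embryo entered as a replicate block in an alternative. Simulated counts were also fitted for the lambdoid SM against OF at E18.5, and nothing is read from them here. Alternatives were limma 3.58.1 voom, DESeq2 1.42.0, other scaling and filters, each suture alone, second libraries, each replicate number left out, and, chosen after seeing the data, the means without the coronal libraries. The named genes were the 9 members, the 3 genes most correlated with each, and of the 40 listed fibroblast genes the 4 highest and 4 lowest called in the mean of SM against OF. Some fascial markers that stand also on the list of 40 were named as well.

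Cells with over 800 genes and within 3 median absolute deviations in UMIs, genes and mitochondrial share were clustered by age with scanpy, leaving out the 9 genes, on 2000 variable genes, with 13 or 15 components and a resolution of 0.8. A cluster was named where at least 3 markers of a class, and more than of all other classes, were among its top 10 genes. Thinning used 2000 UMIs per cell and left out cells with fewer.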

Additional observations from a re-analysis of the deposited data

Results flagged for a closer look

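In each group of 5 libraries, a library was singled out where the gap between the highest or lowest value and its neighbour took more of the group's range than Dixon's 95% limit of 0.71. This happened in 17 of the 180 groups of a gene, of which 11 were coronal. For normal values chance alone gives about 1 in 20, but that rate does not hold for CPM with many values of 0, and no excess is read. For Pi16, Ly6a and Tnxb in the coronal FR at E16.5, and Clec3b in PA, the other libraries were all at 0, so that any read was singled out. In the coronal suture at E16.5 the values far above their group were those of Pi16 in SM replicate 1 (10.45 CPM) and FR replicate 4 (1.054), Ly6a (0.2303) and Tnxb (0.1151) in FR replicate 1, Clec3b in PA replicate 2 (0.3683) and Mfap5 in SM replicate 2 (0.6415). Far below were Pi16 in PA replicate 4 (0) and Dpt in FR replicate 5 (0.3512). At E18.5 the coronal PA replicate 2 was far below for Dpp4 (0.4407) and Tnxb (0), and FR replicate 2 for Ly6a (0.6505).

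In the frontal FR at E18.5, replicate 4 was far below its group for 3 genes, Ly6a (1.527 CPM), Clec3b (0.2545) and Mfap5 (2.714). The remaining values were Cd34 in the frontal SM at E16.5, high in replicate 4 (77.85), Clec3b in the sagittal SM at E18.5, low in replicate 3 (0.07348), and Cpz in the lambdoid IP at E18.5, low in replicate 4 (19.26).

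The change with age of the SM minus OF difference in the coronal suture was called for Pi16 (-4.57 on the log2 scale) and Ly6a (-2.95). The SM minus OF difference was called as unequal among the sutures for 6 genes, beside 20% of all genes, for which the highest suture exceeded the lowest by 4.70 for Mfap5, 3.67 for Cpz, 2.57 for Dpt, 2.38 for Dpp4, 2.27 for Ly6a and 0.94 for Cd34. These genes were chosen with this contrast in view, so that the differences are a description.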

How the results depend on the processing

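Of 1499 values of single genes under alternatives, 1277 kept the call or the lack of it, 135 lost the call and 73 gained one. A further 14 changed sign where the main or the alternative value was called. A change of sign with neither called counts among the 1277. Of SM against OF, the contrast that chose the genes, 28 of the 72 member differences by suture and age were called higher and 6 lower, where 2.76% to 20.9% and 5.15% to 16.6% of all genes were. Nothing is read from these counts. The 6 became 2 with limma voom, 2 with each suture fitted by itself, 3 with the second coronal libraries and 3 to 5 with a replicate number left out. Of the means over sutures, 5 members were called higher (27.6% of all genes), and 9 without the coronal libraries (63.7% of all genes in either direction). In the age change of SM, 5 calls higher became 2 with each suture by itself, 3 with the second libraries and 3 to 6 with a replicate left out, and 1 call lower became 0 with the second libraries and 0 to 1 with a replicate left out. In its mean, 3 calls higher became 0 with the second libraries, 1 without the coronal libraries and 1 to 3 with a replicate left out, and 0 calls lower became 1 without the coronal libraries and 0 to 1 with a replicate left out. In the age change of OF, 3 calls lower became 1 with limma voom, 1 with the replicate block in voom, 8 with each suture by itself and 0 to 2 with a replicate left out. In its mean, 2 calls higher became 1 with limma voom, 1 with the replicate block in voom, 0 with the second libraries, 1 without the coronal libraries and 0 to 2 with a replicate left out, and 0 calls lower became 1 with no low-count filter, 1 with the second libraries, 6 without the coronal libraries and 0 to 2 with a replicate left out. For the difference of age change between regions, 2 calls lower became 0 with limma voom, 1 with the replicate block, 1 with each suture by itself, 0 with the second libraries and 0 to 2 with a replicate left out, and 0 calls higher became 1 with the replicate block, in a suture and in the mean, and 0 to 1 with a replicate left out. Between fronts, 2 calls higher became 1 to 2 and 4 calls lower 0 to 4 with a replicate left out, and the 4 became 0 with limma voom and 0 with each suture by itself.

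The signs that changed where the main or the alternative value was called included those of Pi16 in the coronal suture. Its age change in SM was 0.89 with limma voom, 0.88 with the replicate block in voom and -3.92 to 3.17 with a replicate left out. Its difference of SM from OF at E16.5 was -1.02 with limma voom, -0.54 with the replicate block, -1.0 with the second libraries and -4.78 to 4.43 with a replicate left out. The change of that difference with age was -7.01 to 1.86 with a replicate left out. For Ly6a the coronal E16.5 difference was -0.41 and its change with age 0.39 with the second libraries. Without the coronal libraries the mean age change was -0.51 for Ly6a and -1.08 for Tnxb in OF, and -0.16 for Cd34 and -0.30 for Dpt in SM. The cause of these changes was not tested. Embryos pair the regions of a suture. The replicate block, the embryo as a term, could be fitted for comparisons within a suture and age, and in voom as a random term for the ages. Among the other changes of region or age it changed no call but those given with it in the results. Of the differences of SM from OF and their changes, it lost the calls of Pi16 in the coronal suture and of Dpp4 between sutures, and gained those of Dpp4 (2.12) and Tnxb (1.92) in the sagittal suture at E18.5, of Pi16 between sutures and of Dpt in the change with age, in the coronal suture (1.91) and in the mean (1.22). These are calls on the contrast that chose the genes, or on values built from it, and nothing is read from them.

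The share of E16.5 cells of library 1 with at least 3 of 7 genes was 21.2% with a minimum of 500 detected genes, and that of library 2 0.92% (6 of 652) instead of 0.297% (1 of 337), and at E18.5 the shares were 0.0415% and 0.127% after thinning. The coronal libraries were the deepest, but the coronal SM values of Clec3b, Tnxb, Mfap5 and Pi16 at E16.5 rest on few read pairs, except Pi16 in replicate 1.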
